A study of Rattus norvegicus with 10 samples.

Results

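The glucocorticoid-responsive genes described here are 10 genes that encode the receptor of these adrenal steroid hormones, regulators of their action or products of genes they control. They were measured in white adipose tissue of 10 male rats aged 13 weeks, with 1 expression array per animal. In the noodle group of 5 rats (animals 1, 4, 7, 10 and 13), instant noodle with its seasonings made up 30% of the diet's weight, and 26% of the energy came from fat. The control group of 5 rats (animals 2, 5, 8, 11 and 14) is labelled as fed that diet without its seasonings. Whether the control diet held the noodle is not stated in the labels used. All 10 rats were pair-fed, with a daily ration near 60 g per kg, for 30 days in one label and 4 weeks in another, under a cycle with 12 hours of light. Strain, hour of sampling and fat depot were not known for this work. Every probe set annotated to 1 of the 10 genes and to no other gene was taken. This gave 9 of the 14217 genes with a probe set of their own, by 15 of the 31042 probe sets, and no probe set for Zbtb16.

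Glucocorticoids such as corticosterone, the main one in rats, enter cells and bind a receptor held by chaperones in the cytoplasm. The receptor then moves to the nucleus, binds DNA and raises or lowers transcription of its targets. In fat tissue the hormone promotes fat cell differentiation and acts on lipolysis, glucose uptake and inflammation. Its level in blood follows a daily rhythm, and the clock gene Per1 is both a part of the clock and a direct target of the receptor.

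The values are log2 levels per probe set as deposited, and most of them hardly vary. A probe set with an SD of 0.01 or less over the 10 arrays is called flat here and the others variable. Of the 31042 probe sets, 2607 are variable. Of the 15 probe sets of the glucocorticoid-responsive genes, 8 are variable and 7 flat. Fkbp5, Tsc22d3, Klf9, Pdk4, Hsd11b1 and Errfi1 are represented by a variable probe set, and Nr3c1, Cdkn1a and Lcn2 by flat ones alone. A gene with several probe sets is represented by the brightest. Array medians lay between 6.17 and 6.18, and correlations between arrays between 0.993 and 0.998. The 9 measured fat cell markers had a median level of 12.2, and the 6 brain markers, examined because the extraction text names brain, had a median level of 5.72. The highest of the brain markers was Mbp, at 8.765. As a measure of RNA quality, the level of 3-prime minus that of 5-prime probe sets of Actb and Gapdh was taken. It averaged 0.84 ± 0.069 in the noodle group and 0.95 ± 0.084 in the control group (SD, n = 5 each, exact permutation p = 0.0476). Its part in the results below was not tested beyond the values with it as a covariate.

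The promoters shown are those of Per1 and of Klf9 and Tsc22d3, the 2 members with the highest correlation with Per1. Each is 250 bases before the annotated start in RefSeq on build GRCr8, on the gene's strand. For Tsc22d3, which has several starts, the one farthest downstream is shown. Klf9 lies at chr1:230126396-230126645 (plus strand), Tsc22d3 at chrX:109010035-109010284 (minus strand) and Per1 at chr10:54304126-54304375 (plus strand). Capitals mark TGACG, the half-site of the cyclic AMP response element, on either strand.
Klf9: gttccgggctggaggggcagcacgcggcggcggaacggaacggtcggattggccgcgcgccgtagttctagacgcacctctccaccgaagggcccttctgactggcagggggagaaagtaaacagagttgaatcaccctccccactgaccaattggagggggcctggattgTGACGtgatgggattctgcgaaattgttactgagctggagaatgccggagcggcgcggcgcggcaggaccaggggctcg
Tsc22d3: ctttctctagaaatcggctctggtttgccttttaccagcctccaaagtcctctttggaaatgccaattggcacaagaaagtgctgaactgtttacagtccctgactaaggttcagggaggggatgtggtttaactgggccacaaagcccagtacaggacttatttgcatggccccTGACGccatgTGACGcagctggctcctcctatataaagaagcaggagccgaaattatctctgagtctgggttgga
Per1: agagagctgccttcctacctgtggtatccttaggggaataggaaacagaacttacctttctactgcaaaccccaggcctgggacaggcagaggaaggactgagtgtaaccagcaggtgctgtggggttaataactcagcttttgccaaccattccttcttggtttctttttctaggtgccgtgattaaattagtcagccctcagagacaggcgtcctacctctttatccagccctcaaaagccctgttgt
In 12 such windows of 9 of the genes, Per1 included, 5 motifs were searched first on both strands and none had a match. They were the core of the glucocorticoid response element (GNACA and TGTNC on the 2 sides of 3 bases of any kind, in 0.373% of all 33469 windows of this length), its half-site AGAACA (17.5%), the E-box CACGTG (5.59%), the D-box TTATGNAA (3.28%) and the full cyclic AMP element TGACGTCA (1.59%), which holds the half-site on both strands. The half-site TGACG, added after that, was in 4 of the 12 windows and in 18.2% of all windows. It stands 79 bases before the start of Klf9 and 75 and 65 bases before the shown start of Tsc22d3. It also stands 56 bases before that of Errfi1 and 243 before that of Cdkn1a. The windows at the other starts of Tsc22d3 and the window of Per1 do not hold it. These are matches of letters in short windows and describe the sequence only.

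No measured glucocorticoid-responsive gene passed the adjusted threshold between the diets. Of their 15 probe sets, 0 passed an adjusted p of 0.05 in limma over all 31042 probe sets, where 0% of all probe sets did. Their adjusted p lay between 0.993 and 1. At an unadjusted p under 0.05 there were 3 of the 15 (in noodle animals 2 higher, 1 lower), where 4.77% of all probe sets stood (2.48% higher, 2.29% lower). They included 0 of the 8 variable probe sets, where 8.13% of all variable probe sets stood. They were 3 of the 7 flat ones, where 4.46% of all flat probe sets stood. Those 3, both of Cdkn1a and 1 of Klf9, differed by at most 0.000356 in size, which cannot be read as a size of response. The groups overlapped in all 8 variable probe sets, while they did not overlap in 0.959% of all variable ones. Among the 6 genes with a variable representative, 1 had a higher and 5 a lower mean in the noodle group, with a median difference of -0.09. Over all variable probe sets 55.4% were lower, with a median of -0.01.

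Nr3c1 encodes the glucocorticoid receptor. Both of its probe sets were flat, at levels of 9.12 and 5.99 in both groups, so no response of the receptor's mRNA can be read from them. Hsd11b1 encodes the enzyme that regenerates active glucocorticoid inside fat cells. Its level was 9.30, 9.06, 8.90, 9.11 and 9.25 in noodle animals 1, 4, 7, 10 and 13, against 9.09, 9.11, 9.09, 8.97 and 9.38 in control animals 2, 5, 8, 11 and 14. The highest animal was a control and the lowest a noodle animal, and the groups covered nearly the same range. The difference, noodle minus control, was -0.003 ± 0.096 (SE, n = 5 each), with a 95% interval from -0.22 to 0.22, or 0.858 to 1.16 times. It became positive on dropping noodle animal 4 (0.0136), noodle animal 7 (0.0524), noodle animal 10 (0.00165) or control animal 14 (0.0618). With array weights it was 0.0268, and with the RNA quality covariate it was -0.11 ± 0.12.

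Fkbp5 encodes a chaperone partner that lowers the receptor's affinity for hormone and is itself induced by it. Its level was 7.26, 7.56, 6.69, 7.83 and 7.26 in noodle animals 1, 4, 7, 10 and 13, against 7.50, 7.38, 7.53, 6.88 and 7.12 in control animals 2, 5, 8, 11 and 14. Both the highest and the lowest level were in noodle animals, 10 and 7, with the control animals between them. The difference was 0.04 ± 0.22 (SE, n = 5 each), with an interval from -0.46 to 0.54. It became negative on dropping noodle animal 4 (-0.023), noodle animal 10 (-0.0897), control animal 11 (-0.0635) or control animal 14 (-0.00289). With the RNA quality measure as a covariate it was 0.32 ± 0.25 (unadjusted p = 0.248, adjusted p = 0.831 in limma), and with array weights it was 0.14 ± 0.24. The second probe set of Fkbp5 followed the first over the 10 animals (r = 0.93, permutation p = 3e-05, rho = 0.92, p = 5e-04) and differed by 0.07 ± 0.13 between the diets.

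Tsc22d3 encodes the leucine zipper protein GILZ, a mediator of the anti-inflammatory action of glucocorticoids. It stood at 9.57, 10.16, 9.52, 10.17 and 9.99 in noodle animals 1, 4, 7, 10 and 13, against 10.15, 9.76, 10.03, 9.56 and 10.30 in control animals 2, 5, 8, 11 and 14. Low animals occurred in both groups, namely noodle 1 and 7 and control 11. The difference was -0.07 ± 0.19 (SE, n = 5 each), with an interval from -0.50 to 0.35. Its sign turned on dropping noodle animal 1 (0.00258), noodle animal 7 (0.0152) or control animal 14 (0.011), and with array weights (0.0501).

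Klf9 encodes a zinc finger transcription factor that glucocorticoids induce. Its level was 8.98, 9.46, 9.09, 9.72 and 9.61 in noodle animals 1, 4, 7, 10 and 13, against 9.57, 9.34, 9.70, 9.62 and 9.86 in control animals 2, 5, 8, 11 and 14. Noodle animals 1 and 7 lay below every control, and the other 3 lay within the control range. The difference was -0.24 ± 0.16 (SE, n = 5 each), with an interval from -0.61 to 0.13 (unadjusted p = 0.171, adjusted p = 0.993 in limma). It shrank to -0.145 without noodle animal 1 and to -0.128 with array weights. It grew to -0.328 without noodle animal 10 and to -0.315 ± 0.22 with the RNA quality covariate. The 2 other probe sets of Klf9 were flat, at 6.84 and 5.62.

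Pdk4 encodes a kinase that shuts pyruvate dehydrogenase and is induced by glucocorticoids and by fasting. It stood at 8.76, 8.72, 8.24, 8.58 and 7.69 in noodle animals 1, 4, 7, 10 and 13, against 8.37, 8.77, 8.61, 8.31 and 8.45 in control animals 2, 5, 8, 11 and 14. Noodle animal 13 was the lowest of all, and its second probe set was the lowest there too, at 6.46 against 6.67 to 6.95 in the control animals. The difference was -0.10 ± 0.21 (SE, n = 5 each), with an interval from -0.58 to 0.37. The second probe set differed by 0.03 ± 0.14, with the opposite sign. The difference of the first was 0.0725 without noodle animal 13 and 0.196 with the RNA quality covariate.

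Errfi1 encodes an inhibitor of the epidermal growth factor receptor. It had the largest difference among the 6 genes. Its level was 7.96, 8.60, 7.74, 8.04 and 8.18 in noodle animals 1, 4, 7, 10 and 13, against 8.22, 8.37, 8.28, 8.40 and 8.80 in control animals 2, 5, 8, 11 and 14. All noodle animals but number 4 lay below every control. The difference was -0.31 ± 0.17 (SE, n = 5 each), with an interval from -0.70 to 0.08, or 1.24-fold lower (unadjusted p = 0.102, adjusted p = 0.993 in limma). Without noodle animal 4 it was -0.43 ± 0.14 (unadjusted p = 0.0143, adjusted p = 0.986), and without control animal 14 it was -0.213.

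Cdkn1a, the gene of the cell cycle inhibitor p21, and Lcn2, which encodes the secreted protein lipocalin-2, had flat probe sets. They stood at 6.87 and 5.50 for Cdkn1a and at 6.46 for Lcn2 in both groups. Per1, set beside these genes below, stood at 6.56, 7.04, 6.50, 7.41 and 7.37 in noodle animals 1, 4, 7, 10 and 13, against 7.31, 7.37, 7.22, 7.06 and 7.41 in control animals 2, 5, 8, 11 and 14. Noodle animals 1 and 7 were far below the others. The difference of Per1 was -0.30 ± 0.20 (SE, n = 5 each), with an interval from -0.75 to 0.15. It shrank to -0.196 without noodle animal 1, to -0.18 without noodle animal 7 and to -0.139 with array weights. It grew to -0.408 without noodle animal 10 and to -0.397 without noodle animal 13.

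**Figure D1:**
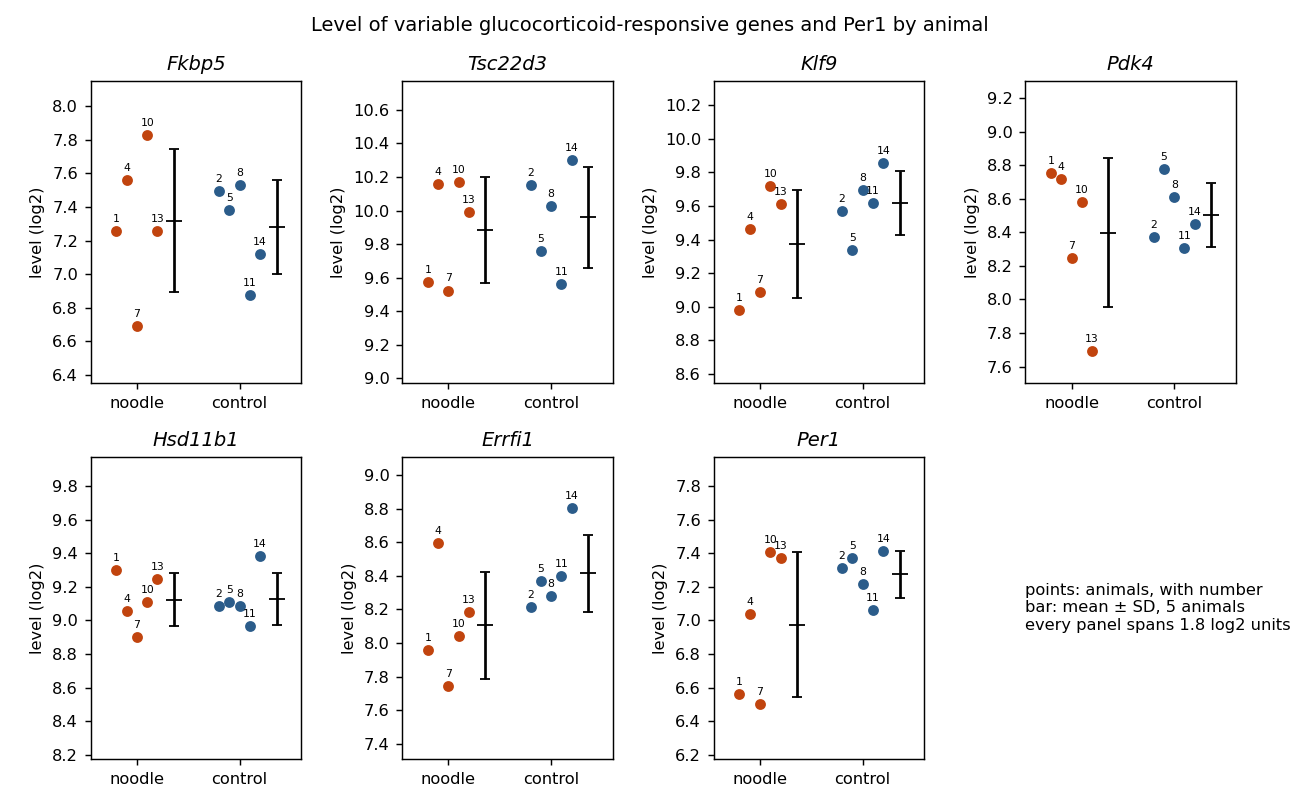
Level (log2) of the 6 genes with a variable representative and of Per1 in each animal, noodle left of control in every panel; points carry animal numbers and bars show the mean ± SD of 5 animals. Noodle animals 1 and 7 are the lowest in Klf9 and Per1, while the groups overlap in every gene.

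The SD among the noodle animals was larger than that among the controls in 6 of the 6 genes. Over all variable probe sets the noodle SD was the larger in 35.9%, and the median ratio of noodle to control SD was 0.828. Pdk4 had an SD of 0.444 in the noodle group and 0.189 in the control group, Klf9 had 0.323 and 0.19, and Fkbp5 had 0.425 and 0.278. For Tsc22d3 and Hsd11b1 the SDs were nearly equal, with ratios of 1.05 and 1.02, and Errfi1 had a ratio of 1.38. Per1 had an SD of 0.432 in the noodle group and 0.141 in the control group, a ratio of 3.07. Permutation tests of the mean distance from the diet's median used all 252 assignments of values with diet means subtracted. That subtraction makes these tests approximate. Their p was 0.0476 for Per1, 0.0794 for Pdk4 and 0.0873 for Klf9. None passed after adjustment over the 7 genes (adjusted p = 0.204 for those 3). This comparison was added after the values were seen, and the genes are correlated, so their SDs are not 6 separate observations.

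Other genes of the pathway did not pass either. Of 50 genes on 4 lists (receptor and chaperones, steroid metabolism, coregulators and other targets), 46 were measured, and 0 rose and 0 fell at an adjusted p of 0.05 over all probe sets. Of the 20 with a variable representative, Per1 included, 7 had a higher and 13 a lower mean in the noodle group, with a median difference of -0.06. Over all variable probe sets 55.4% were lower, with a median of -0.01. Among chaperones, Hsp90ab1, which holds the receptor ready for hormone, differed by 0.11 ± 0.07. The other 5 measured genes of that list were flat. In steroid metabolism 2 of 4 measured genes were variable. One was Hsd11b2, named here after its values were seen, whose enzyme inactivates glucocorticoid and which differed by 0.04 ± 0.19. Among the other targets, 5 of 16 had a higher and 11 a lower mean. Mt2A, a metallothionein that binds zinc, had the smallest p. Of the 20, it alone had an unadjusted p under 0.05, where 8.13% of all variable probe sets stood. Its difference was -0.34 ± 0.14 (unadjusted p = 0.0398, adjusted p = 0.993 in limma), with levels from 7.02 to 7.76 in the noodle group and 7.42 to 7.89 in the control group. Nfkbia, which encodes the inhibitor of NF-kappa-B, differed by -0.25 ± 0.12. Higher in mean were Rgs2, a regulator of G protein signalling, by 0.46 ± 0.23, and Cd163, a macrophage scavenger receptor, by 0.15 ± 0.16.

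**Figure D2:**
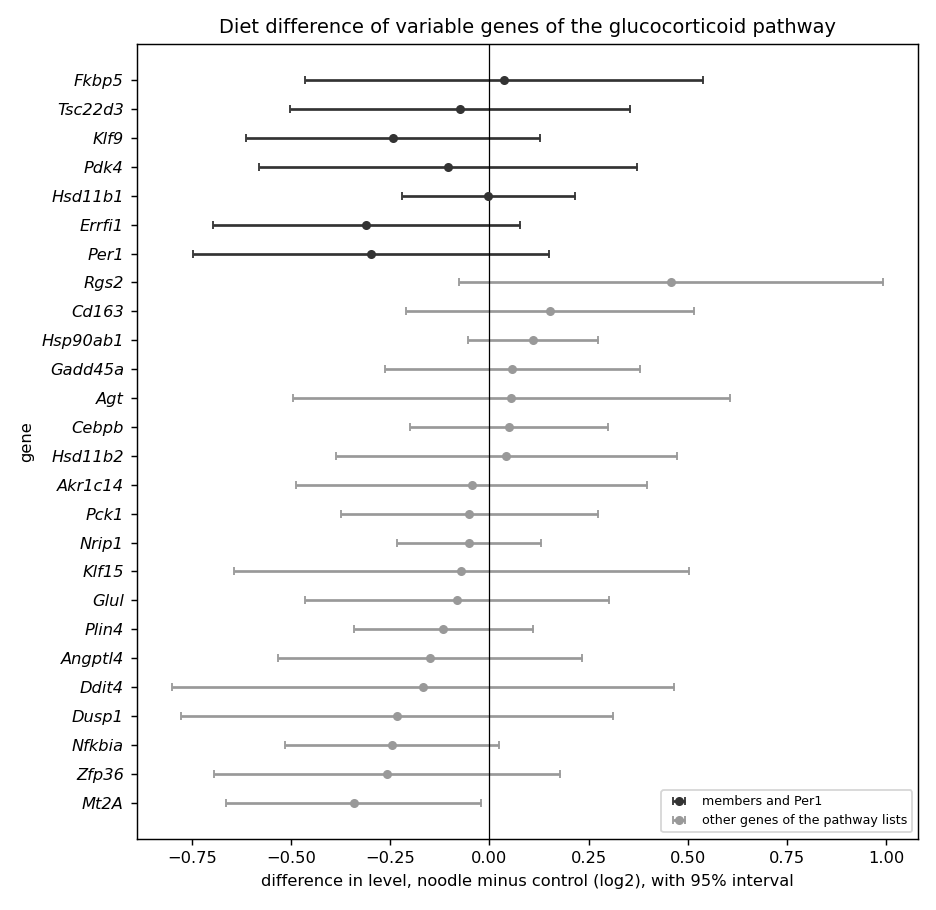
Difference in level, noodle minus control (log2), with its 95% interval, for the 6 genes with a variable representative and Per1 (dark) and 19 other variable genes of the pathway lists (grey). All intervals but that of Mt2A include 0, and these intervals are not adjusted for the number of genes.

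The question of co-variation was whether these genes were high and low in the same animals. The 6 genes give 15 pairs, of which 13 had r above 0 and 2 below 0, with a median r of 0.354, where the median over all pairs of variable probe sets was 0.041. With the sign ignored, the median size of r was 0.354 for the 15 pairs and 0.299 for all pairs. No pair passed after adjustment over the 15 pairs. Before adjustment 3 pairs had a permutation p under 0.05, and 6.63% of all pairs of variable probe sets had an r at least as high as the weakest of the 3. Tsc22d3 and Klf9 had r = 0.75 (permutation p = 0.0133, adjusted p = 0.199) and rho = 0.66 (p = 0.0445, adjusted p = 0.407). Fkbp5 and Tsc22d3 had r = 0.66 (p = 0.0389, adjusted p = 0.244) and rho = 0.64 (p = 0.0543, adjusted p = 0.407). Klf9 and Errfi1 had r = 0.64 (p = 0.0488, adjusted p = 0.244) and rho = 0.47 (p = 0.178, adjusted p = 0.579).

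These values of r changed with the animals included. Without the 2 animals farthest from the median of the first gene, r was 0.89 for Tsc22d3 and Klf9 and 0.467 for Fkbp5 and Tsc22d3. It was 0.138 for Klf9 and Errfi1, without noodle animals 1 and 7. Leaving out such animals narrows the range of the first gene, and which are left out depends on the gene taken first. For Errfi1 the 2 farthest are control animal 14 and noodle animal 7. Tsc22d3 and Klf9 passed without control animal 11 (r = 0.917, adjusted p = 0.0146), and Fkbp5 and Tsc22d3 without control animal 14 (r = 0.854, adjusted p = 0.0164). Fkbp5 and Klf9, the partners of Tsc22d3 in those pairs, had an r of 0.354 with each other (p = 0.316, adjusted p = 0.592, rho = 0.25, p = 0.493). Pdk4 had r between -0.22 and 0.40 with the other 5 genes, and Hsd11b1 between -0.003 and 0.42.

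**Figure D3:**
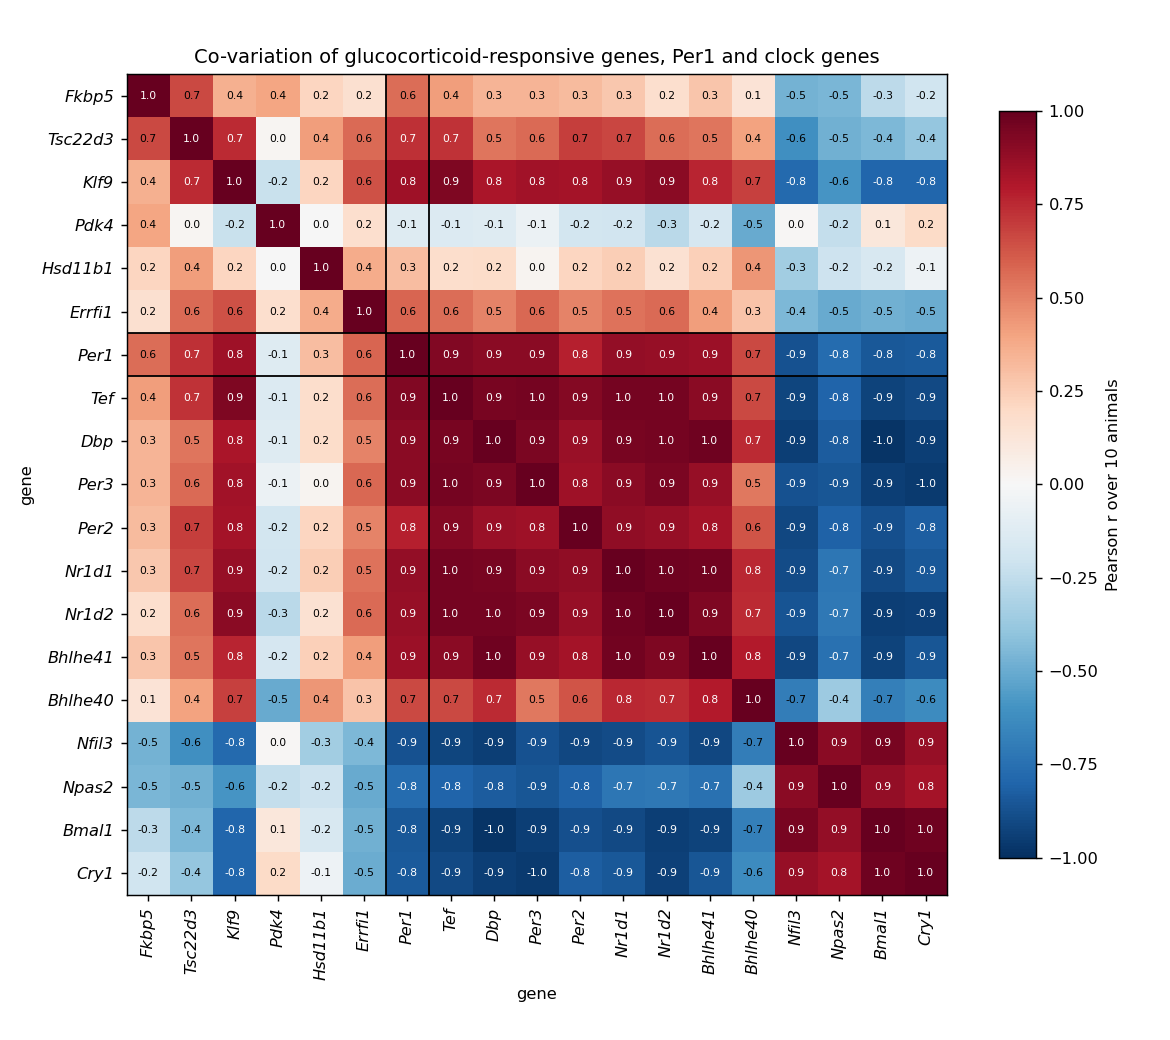
Pearson r over the 10 animals for the 6 genes, Per1 and 12 variable clock genes, both axes listing the same genes and colour giving r from -1 to 1. Klf9 shows the strongest colours against the clock genes among the 6, with a median size of r of 0.807, and Pdk4 the weakest, with 0.175.

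Per1 ties the clock to the steroid, and the 6 genes were set against it together with 12 variable clock genes, 18 relations in all. Of the 6, Klf9 and Tsc22d3 passed after adjustment over the 18 relations. All 12 clock genes passed in that family too, which makes the adjusted p of these 2 genes smaller than over the 6 alone. Adjustment over the 6 alone was not run. Klf9 had r = 0.85 (permutation p = 0.00558, adjusted p = 0.0112) and rho = 0.75 (p = 0.0173, adjusted p = 0.0446). Tsc22d3 had r = 0.73 (p = 0.0145, adjusted p = 0.0201) and rho = 0.70 (p = 0.0302, adjusted p = 0.0543). Adjusted over all 2606 variable probe sets set against Per1, neither passed, at 0.496 and 0.643, and 0% of those probe sets did. At an unadjusted p under 0.05 with r above 0 there were 4.45% of them (1.23% with r below 0), and 0.614% had an r at least that of Klf9 and 1.92% at least that of Tsc22d3.

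The other 4 did not pass. Errfi1 had r = 0.58 (permutation p = 0.0799, adjusted p = 0.0958) and rho = 0.36 (p = 0.315). Fkbp5 had r = 0.55 (p = 0.0936, adjusted p = 0.105) and rho = 0.31 (p = 0.387), and its second probe set had r = 0.34 (p = 0.332) and rho = 0.19 (p = 0.605). Hsd11b1 had r = 0.31 (p = 0.385, adjusted p = 0.407) and rho = 0.61 (p = 0.0681). Pdk4 had r = -0.13 (p = 0.731, adjusted p = 0.731) and rho = -0.07 (p = 0.867).

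**Figure D4:**
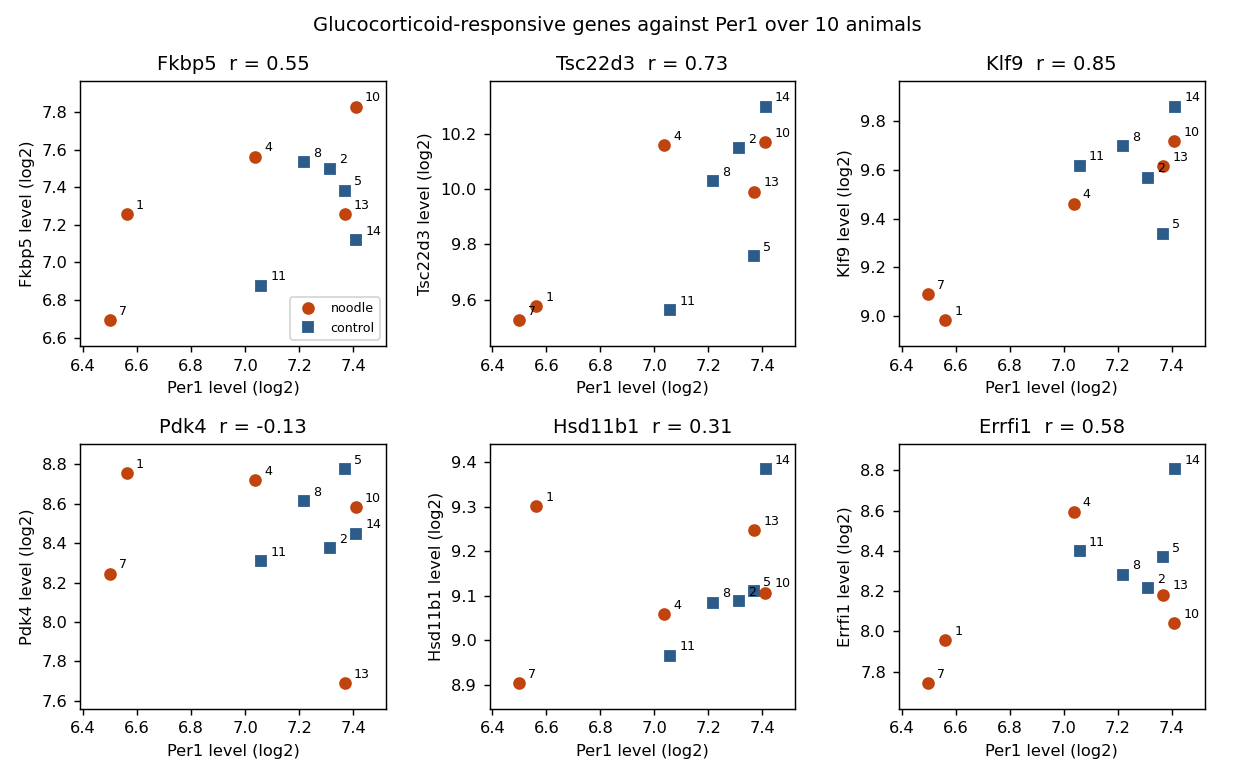
Level (log2) of each of the 6 genes against the level of Per1, 1 point per animal with its number, circles for noodle and squares for control animals. Noodle animals 1 and 7 stand apart at the low end of Per1, at 6.56 and 6.50, and without them r for Klf9 is 0.299.

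Klf9 and Tsc22d3 had a lower r with Per1 when noodle animals 1 and 7, the 2 farthest from the median of Per1, were left out. Without these 2 animals, r was 0.299 for Klf9 (permutation p = 0.47, rho = 0.52, p = 0.197) and 0.387 for Tsc22d3 (p = 0.347, rho = 0.45, p = 0.266), and neither gene passed in the other 8 animals. Leaving these 2 out also narrowed the range of Per1, to 7.04 to 7.41. Errfi1 turned to -0.242 there and Fkbp5 had 0.238, while Hsd11b1 had 0.689 (p = 0.0452, adjusted p = 0.143, rho = 0.90, p = 0.0046). With 1 animal left out, Klf9 kept an r between 0.757 and 0.942 and an adjusted p below the threshold each time. Tsc22d3 missed it without noodle animal 7 (r = 0.631, adjusted p = 0.083) or control animal 14 (r = 0.702, adjusted p = 0.0506). Hsd11b1 passed without noodle animal 1 (r = 0.749, adjusted p = 0.043) and had -0.0448 without noodle animal 7, and Errfi1 passed without noodle animal 10 (r = 0.708, adjusted p = 0.0428). For Pdk4 the sign turned without noodle animal 1 (0.0837) or 13 (0.145).

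With each diet's mean subtracted, so that only differences within the diets counted, r was 0.804 for Klf9 (exact permutation p = 0.0397, adjusted p = 0.0604), 0.762 for Tsc22d3 (p = 0.0223, adjusted p = 0.0573) and 0.657 for Fkbp5 (p = 0.0867, adjusted p = 0.111). Errfi1 had a lower r than with the diets pooled, 0.45 (exact permutation p = 0.319, adjusted p = 0.359). Hsd11b1 had 0.346 and Pdk4 -0.233, and none of the 6 passed after adjustment. With 5 animals per diet no r was computed inside a single diet.

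The 12 clock genes all passed against Per1 over the 18 relations, 8 with r above 0 and 4 below. By rho 7 of the 12 passed, and with diet means subtracted 2 did, Npas2 and Per3 (adjusted p = 0.03 for both). Tef, a clock-driven transcription factor, had r = 0.93 (permutation p = 9.2e-04, rho = 0.82, p = 0.0059), and Dbp, another one, had r = 0.90 (p = 0.00131, rho = 0.77, p = 0.0129). Without noodle animals 1 and 7 these were 0.712 and 0.698. Over the 12 clock genes the size of r then ran from that of Cry1 (r = -0.39, permutation p = 0.365) to that of Bhlhe41 (r = 0.79, p = 0.0195). Npas2 had -0.41 and Per2 0.45 there. Klf9 and Tsc22d3, at 0.299 and 0.387, were below all 12 clock genes in size of r. By rho, at 0.52 and 0.45, they lay within the clock genes, whose size ran from 0.05 (Cry1) to 0.74 (Nr1d1). With Dbp regressed out of both genes, a step added after the values were seen, r with Per1 was 0.436 for Klf9 (permutation p = 0.208), 0.688 for Tsc22d3 (p = 0.0297) and 0.615 for Fkbp5 (p = 0.0606). After adjustment over the 17 relations left, 0 of the 6 genes and 0 of the clock genes passed, and the difference between these values of r was not tested.

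**Figure D5:**
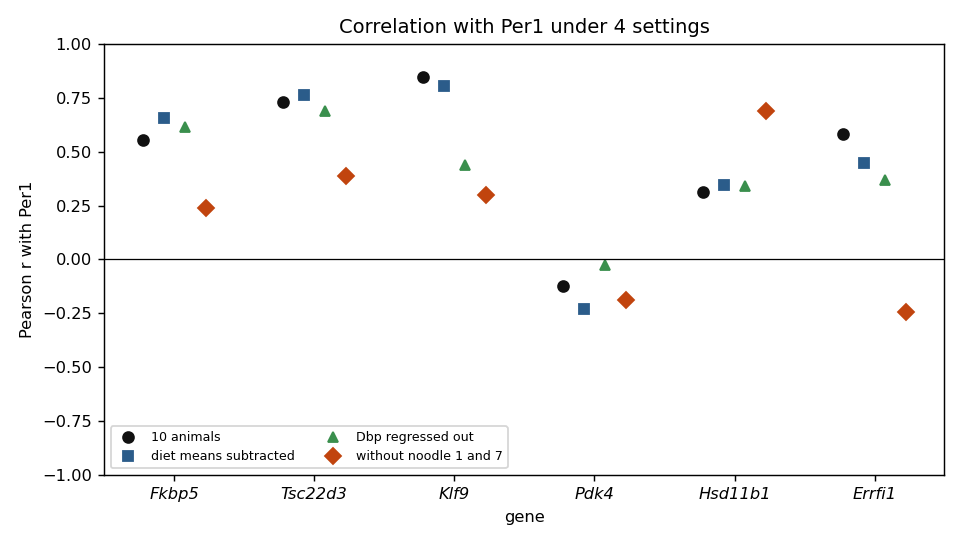
Pearson r with Per1 (vertical axis, -1 to 1) for each of the 6 genes over all 10 animals, with diet means subtracted, with Dbp regressed out and without noodle animals 1 and 7. With Dbp regressed out and without the 2 animals, Klf9 stands at 0.436 and 0.299 and Tsc22d3 at 0.688 and 0.387.

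Set against the 12 clock genes directly, in 72 relations added after the values were seen, Klf9 passed with Tef, Nr1d2 and Nr1d1 and the other 5 genes with 0 of 12. Klf9 had r = 0.93 with Tef (permutation p = 4.1e-04, adjusted p = 0.025, rho = 0.84, p = 0.0038). It had r = 0.90 with Nr1d2 (p = 8.8e-04, adjusted p = 0.025, rho = 0.88, p = 0.00148) and r = 0.87 with Nr1d1 (p = 0.00104, adjusted p = 0.025, rho = 0.83, p = 0.00488), which both encode repressors of the clock. By rho none of the 3 passed over the 72 (adjusted p from 0.107 to 0.117), and with diet means subtracted none did (adjusted p from 0.0625 to 0.145). Without noodle animals 1 and 7 the 3 values of r were 0.707, 0.667 and 0.633. The median size of r with the clock genes was 0.807 for Klf9, 0.547 for Tsc22d3, 0.497 for Errfi1, 0.297 for Fkbp5, 0.194 for Hsd11b1 and 0.175 for Pdk4. Over all pairs of variable probe sets it was 0.299.

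The genes whose pattern over the 10 animals was most like these were sought among 2071 other variable probe sets with 1 gene, by r after subtraction of diet means, and are given as a description. For Fkbp5 they were Lpin1 (r = 0.864), which encodes a phosphatidate phosphatase, Pfkfb3 (0.791), a regulator of glycolysis, and a probe set of Fmo2 (0.753), a monooxygenase. For Tsc22d3 they were 2 probe sets of Fmo2 (0.936 and 0.883) and Aqp1 (0.907), a water channel. For Per1 they were Per3 (0.93), Tef (0.922) and Dbp (0.909), all clock genes.

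Markers of other cell types were set against the 6 genes and Per1 in 49 relations, none of which passed after adjustment. The mean of the 6 mesothelial markers, all variable, ran from 6.41 to 7.15 in the noodle group and from 6.33 to 7.72 in the control group. It had r = 0.73 with Klf9 (permutation p = 0.0169, rho = 0.76, p = 0.0151) and 0.718 with Errfi1 (p = 0.0189, rho = 0.58, p = 0.0866), with an adjusted p of 0.309 for both. The mean of the 4 variable fat cell markers had r = 0.78 with Hsd11b1 (p = 0.00824, rho = 0.89, p = 0.00103, adjusted p = 0.309). The array median had r = 0.698 with Klf9 (p = 0.0239, rho = 0.66, p = 0.0441) and 0.721 with Errfi1 (p = 0.0185, rho = 0.58, p = 0.0894), with an adjusted p of 0.167 for both over 14 relations, those of the array median and of the RNA quality measure together. With arrays centred on their medians, Klf9 and Errfi1 differed by -0.241 and -0.309 between the diets, and Klf9 had r = 0.844 with Per1. With the RNA quality covariate, r with Per1 was 0.86 for Klf9 and 0.787 for Tsc22d3. Beyond such values the part of the array median and RNA quality was not tested, and that of the cell markers was not tested at all. In bulk tissue fewer cells of a type and less RNA per cell cannot be told apart.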

How the data were processed

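Gene expression in white adipose tissue of 10 rats was taken from the deposited table, which holds 1 value per probe set and array, read here as log2 from its range. Per the labels' protocols, 100 ng of total RNA was made into biotin-labelled cRNA. What log base, background correction, summarisation or normalization was used is not stated in the labels, and why most values are flat is not known from them. The number of arrays limits the precision. Of 31099 probe sets, 57 array controls were left out. Genes were named from the platform annotation, in which 20826 of the probe sets have 1 symbol, 436 several and 9780 none.

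Groups follow the sample titles. Nothing says whether the animals of a group were housed or handled apart, so p-values measure the spread between these arrays. Diets were compared by limma's moderated test (version 3.58.1, run under R 4.3.3; lmFit, then eBayes; two-sided). Its p-values were adjusted by Benjamini-Hochberg across the 31042 probe sets. Correlations were tested two-sided with 100000 permutations (numpy 2.4.6), or exactly over 14400 permutations within the diets, with Benjamini-Hochberg adjustment over the relations named. The tests were checked on simulated data with known answers.

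The genes, lists and clock genes were chosen with earlier results of these data known. Named beside the 10 genes and Per1 were the clock genes, the 3 variable pathway genes of lowest p among those higher and among those lower in the noodle group (Per1 is 1 of them), and the 3 probe sets most like Fkbp5, Tsc22d3 and Per1. Alternatives were quantile normalization, centring, a filter on dim probe sets, an intensity trend, array weights, averaging of a gene's variable probe sets, an RNA quality covariate, an SD limit of 0.05 and leaving out each animal.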

Additional observations from a re-analysis of the deposited data

How the results depend on the processing

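No paired analysis was run. The rats were pair-fed, but which noodle animal was matched with which control animal was not known for this work. A pairing by neighbouring numbers was not tested. Under the alternatives run, 0 members passed between the diets each time. The number of probe sets past the threshold was 0 to 1 with single animals left out (1 without control animal 14), and that of variable members at an unadjusted p under 0.05 was 0 to 1 (1 without noodle animal 4, Errfi1). Of 102 repeats of the 6 differences, 15 turned sign. Tsc22d3 and Hsd11b1 were at 0.0501 and 0.0268 with array weights, and Pdk4 was at 0.196 with RNA quality as a covariate. That covariate also moved Fkbp5 to 0.319 and Hsd11b1 to -0.108 between the diets, and r of Pdk4 with Per1 to -0.448, beyond the ranges below. With single animals left out, Fkbp5 ran from -0.0897 to 0.195, Tsc22d3 from -0.175 to 0.0152, Pdk4 from -0.194 to 0.0725 and Hsd11b1 from -0.0467 to 0.0618. Klf9 ran from -0.328 to -0.145, Errfi1 from -0.433 to -0.213 and Per1 from -0.408 to -0.18. The 2 members that passed against Per1 became 1 by Spearman rho, and 0 with diet means subtracted, without the 2 animals farthest from the median of Per1, with Dbp regressed out or with adjustment over all variable probe sets. With single animals left out this count ran from 1 to 3, and r ran from -0.36 to 0.145 for Pdk4 and from -0.0448 to 0.749 for Hsd11b1. For Errfi1 r was -0.242 without those 2 animals. Pairs of members that passed were 0 to 1 with single animals left out. The cause of these changes was not tested. Over all probe sets the median difference was 0.00166 after centring and 0.00124 after quantile normalization, larger than the differences of the flat members at an unadjusted p under 0.05, so no direction was read from those.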
